A study of Arabidopsis thaliana with 6 samples.

Results

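Transcripts of 10 genes of leaf starch breakdown in *Arabidopsis thaliana* were followed in 9-day-old whole seedlings of the nup50c mutant and the wild type Col-0, 3 libraries each. The genes were listed by locus identifier, by a rule that uses no measured value, though the list was drawn up with earlier results of these data known. All 10 were found among the 30865 genes of the count table and passed the filter on low counts. They encode *SEX1* and *PWD* (glucan phosphorylation), *SEX4* (glucan dephosphorylation), *BAM1* and *BAM3* (beta-amylases), *ISA3* and *LDA* (debranching), *DPE1* (maltotriose conversion), *MEX1* (maltose export) and *DPE2* (cytosolic maltose metabolism). The seedlings of both groups grew on medium with 1% sucrose and had no further treatment. The mutant is labelled by its genotype alone, with no allele, and the numbers on its samples were read as replicates although they may instead mark alleles. NUP50 proteins sit in the nuclear basket of the pore through which proteins and RNA pass between nucleus and cytoplasm. The labels do not state that replicates are separately grown plants, so the p-values cover only the spread among these libraries, which can be technical.

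Chloroplasts of *Arabidopsis* leaves store part of the carbon fixed by day as starch granules and break the granules down at night. Water dikinases first put phosphate on the glucan chains at the granule surface, which opens the surface to beta-amylases, and phosphatases take the phosphate off again so that the amylases can proceed. Beta-amylases release maltose, debranching enzymes cut the branch points, and the maltose leaves the plastid and is converted to glucose in the cytosol. Transcripts of several of these enzymes are known to oscillate over the day under the control of the circadian clock.

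Libraries held 33273007 to 39574236 counts. *NUP50C* (AT4G11790), the mutated gene, was at 28.99 to 35.7 normalized CPM (counts relative to the library total, which was scaled by the TMM method) in wild type and at 10.01 to 13.6 in nup50c, a log2 fold change of -1.49 (SE 0.15, edgeR adjusted p = 0.00293). Some of the transcript was thus still counted in every nup50c library. Library nup50c replicate 3 stood apart from the other libraries on the second principal component (-83.6 against -4.9 to 31.5). All 4 leaf markers and all 5 root markers were detected in every library. Of the flower markers, *PI* and *AG* had no count in any library and *AP3* had 21 counts in nup50c replicate 3 and 0 elsewhere. Of the seed markers, *CRU3* and *SESA3* had no count in any library, and *CRA1* had 95 counts in wild-type replicate 3 and 0 elsewhere. The seed marker *OLEO1* was not found among the genes of the count table. The summed leaf markers were at 23094 to 24252 CPM in wild type and 20494 to 22166 in nup50c. One of them, *LHCA1* of the photosystem I antenna, was called lower (2395 ± 96.0 and 1390 ± 155 CPM, SD, n = 3 each; log2 change -0.79, edgeR adjusted p = 0.00299), and the other 3 were not called. The summed root markers were at 112 to 138 and 87.7 to 89.02, of which the iron transporter *IRT1* alone gave 55.6 to 84.1 and 29.3 to 32.8 and was called lower (edgeR adjusted p = 0.00775). The other 4 root markers were not called, and their fitted changes were above 0. The largest was that of *RHD6* (1.46 ± 0.27 and 3.75 ± 1.41 CPM, SD, n = 3 each). Their part in the starch results was not tested. In RNA of whole seedlings, fewer cells of a type and less RNA per cell cannot be told apart.

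In nup50c, 6 of the 10 starch breakdown genes were higher than in wild type and 0 were lower, by the quasi-likelihood test of edgeR, Benjamini-Hochberg adjusted over the 21158 genes tested. Of all genes tested, 1.12% were called higher and 1.17% lower. The genes that rose were *SEX1*, *PWD*, *BAM3*, *ISA3*, *DPE1* and *DPE2*, by 1.28-fold to 1.73-fold in mean normalized CPM. *SEX4*, *BAM1*, *LDA* and *MEX1* did not pass. At an unadjusted edgeR p under 0.05, 8 of the 10 were higher and 0 lower, against 8.66% and 7.98% of all genes tested. DESeq2 called 7 of the 10 higher and 0 lower, against 3.01% and 2.80% of the genes it tested. The median log2 fold change of the 10 genes was 0.47, against -0.00 over all genes tested. In 7 of the 10, every nup50c library lay above every wild-type library, as it did in 11.7% of all genes tested.

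Upstream sequences are shown for those of the genes that rose whose 300 bases before the annotated gene start held a clock- or light-related motif and no other annotated gene. Each was read from TAIR10.1 by the RefSeq gene start, 5′ to 3′ on the strand of the gene, with motif matches in capitals: the evening element AAATATCT and the CCA1-binding site AAAAATCT, both known as binding sites of the MYB factors CCA1 and LHY, and the G-box CACGTG, a site of light-related bZIP and bHLH factors. Both strands were searched, so the first motifs also appear as AGATATTT and AGATTTTT, and no matches overlapped.
PWD (chr5:9261179-9261478, plus strand): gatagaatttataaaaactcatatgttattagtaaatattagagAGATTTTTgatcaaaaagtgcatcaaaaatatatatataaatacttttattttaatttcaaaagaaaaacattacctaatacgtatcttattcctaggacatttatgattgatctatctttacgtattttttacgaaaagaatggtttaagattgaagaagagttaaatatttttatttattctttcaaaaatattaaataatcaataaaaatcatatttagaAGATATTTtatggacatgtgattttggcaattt
ISA3 (chr4:5783609-5783908, plus strand): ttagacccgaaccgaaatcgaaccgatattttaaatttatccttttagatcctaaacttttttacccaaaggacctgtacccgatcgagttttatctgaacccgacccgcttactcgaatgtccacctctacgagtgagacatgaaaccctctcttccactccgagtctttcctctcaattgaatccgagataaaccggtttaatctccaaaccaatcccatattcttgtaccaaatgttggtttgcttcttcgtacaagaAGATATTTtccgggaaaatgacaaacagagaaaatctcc
DPE1 (chr5:25928880-25929179, minus strand): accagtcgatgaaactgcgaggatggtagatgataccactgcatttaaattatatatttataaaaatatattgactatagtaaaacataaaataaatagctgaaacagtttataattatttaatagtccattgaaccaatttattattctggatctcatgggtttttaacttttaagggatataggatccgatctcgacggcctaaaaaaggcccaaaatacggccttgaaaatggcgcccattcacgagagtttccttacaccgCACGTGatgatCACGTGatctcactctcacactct
The evening element was found in 2 of the 10 windows, 33 to 26 bases before the start of *PWD* and 39 to 32 bases before that of *ISA3*. Of the 27443 windows of nuclear protein-coding genes, 5.64% held it. The CCA1-binding site was found in 2 of the 10, *PWD* and *DPE2*, against 7.94% of all windows. The G-box was found in 1, *DPE1*, where it occurs at 35 to 30 and again at 24 to 19 bases before the start, against 7.09% of all windows. The windows of *SEX1* and *BAM3*, which also rose, held no match. All matches are letters in a window and no measure of binding, and their part in the changes was not tested.

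Both plastid dikinases of glucan phosphorylation rose. *SEX1* (AT1G10760, chromosome 1 from 3580830 to 3590928, minus strand), the glucan, water dikinase GWD1 whose loss gives the starch-excess phenotype, was at 219, 267 and 255 CPM in the wild-type libraries and at 379, 389.7 and 459.5 in nup50c. The lowest nup50c library was above the highest wild-type library. This corresponds to a log2 change of 0.73 (SE 0.10, adjusted p by edgeR = 0.0092). *PWD* (AT5G26570, chromosome 5 from 9261479 to 9267732, plus strand), the phosphoglucan, water dikinase that acts on glucan already phosphorylated by SEX1, was at 136, 154 and 159 CPM in wild type. In nup50c it was at 262, 248 and 264, with a spread between libraries (SD 8.72) far smaller than the distance between the groups. The fitted log2 change of *PWD* was 0.79 (SE 0.07, adjusted p by edgeR = 0.00208). Both calls were kept without each single library in turn (highest adjusted p = 0.0442 for *SEX1* and 0.0165 for *PWD*). *GWD2*, a related dikinase outside the plastid, was at 14.1 ± 1.80 CPM in wild type, against 13.9 ± 2.35 in nup50c (both SD, n = 3; log2 change -0.02, edgeR adjusted p = 0.97).

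*SEX4* (AT3G52180, chromosome 3 from 19349600 to 19353728, minus strand), the phosphoglucan phosphatase that removes this phosphate, was at 46.6, 50.5 and 40.7 CPM in wild type and at 62.6, 48.9 and 68.4 in nup50c. Library nup50c replicate 2 lay inside the wild-type range. The log2 fold change was 0.38 with a 95% interval of 0.08 to 0.68, and it did not pass over all genes (edgeR adjusted p = 0.19). The related phosphatase *LSF2* was at 27.3 ± 1.54 CPM in wild type and 25.8 ± 1.40 in nup50c, and *LSF1*, a relative that binds beta-amylases, at 17.7 ± 2.55 and 19.1 ± 1.68 (SD, n = 3 each), and neither passed (edgeR adjusted p = 0.76 for both).

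Of the beta-amylases *BAM3* and *BAM1*, which act on starch in the plastid, *BAM3* passed the test and *BAM1* did not. *BAM3* (AT4G17090, chromosome 4 from 9604962 to 9607402, minus strand), the main beta-amylase of leaf starch breakdown at night, was at 321, 322 and 336 CPM in wild type and at 442, 378 and 427 in nup50c. The groups did not overlap, and the log2 change was 0.35 (SE 0.07, adjusted p by edgeR = 0.0357), the smallest of the 6 rises. This call was lost without any single library except nup50c replicate 2 (highest adjusted p = 0.17, without wild-type replicate 1). AT4G06665, annotated on the opposite strand, lies wholly inside *BAM3* (518 shared bases) and was listed at 558 to 568 counts in wild type and 705 to 742 in nup50c, and no source at hand says if the counting separated strands.

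*BAM1* (AT3G23920, chromosome 3 from 8641181 to 8644449, plus strand), a beta-amylase known from stress and from guard cells, was at 85.0, 77.7 and 78.6 CPM in wild type and at 67.2, 68.6 and 102.8 in nup50c. A pair of nup50c libraries lay below every wild-type library and nup50c replicate 3 above all of them. The log2 fold change was -0.02, with a 95% interval of -0.42 to 0.38 (edgeR adjusted p = 0.98), and without nup50c replicate 3 it was -0.245 (adjusted p = 0.135). Per kilobase of exon, *BAM1* made up 18.1%, 16.8% and 16.4% of the sum of *BAM1* and *BAM3* in wild type. In nup50c it made up 11.3%, 13.1% and 16.7%, and the last of these lies inside the wild-type range. The means differed by -3.38 percentage points (two-sided exact permutation p = 0.2, where 3 against 3 cannot go below 0.1).

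Of the debranching enzymes, *ISA3* (AT4G09020, chromosome 4 from 5783909 to 5789100, plus strand), an isoamylase that trims short branches, was at 40.9, 48.03 and 45.2 CPM in wild type and at 72.9, 67.1 and 73.3 in nup50c. All nup50c libraries were above all wild-type libraries, with a log2 fold change of 0.67 (SE 0.08, edgeR adjusted p = 0.00646), and the call was kept without each single library (highest adjusted p = 0.037). *LDA* (AT5G04360, chromosome 5 from 1221448 to 1228841, plus strand), the limit dextrinase, which shares this task, was at 30.9, 35.7 and 36.8 CPM in wild type and at 45.4, 45.04 and 53.6 in nup50c. Its groups did not overlap either, but at a log2 fold change of 0.48 (95% interval 0.24 to 0.71) it stood just outside the threshold (edgeR adjusted p = 0.0516). With DESeq2 (adjusted p = 0.00613) and over genes with at least 10 counts in all libraries (adjusted p = 0.0202) it passed. The share of *ISA3* in the sum of *ISA3* and *LDA*, per kilobase, was 62.5%, 62.9% and 60.7% in wild type, against 66.9%, 65.2% and 63.3% in nup50c. The difference of 3.11 percentage points had the smallest p that the exact permutation test allows (two-sided, p = 0.1).

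*DPE1* (AT5G64860, chromosome 5 from 25925173 to 25928879, minus strand), the plastid disproportionating enzyme that turns leftover maltotriose into glucose and longer chains, was at 39.9, 55.8 and 47.1 CPM in wild type. In nup50c it was at 73.4, 73.2 and 81.3, above every wild-type library. The log2 change was 0.67 (SE 0.12, adjusted p by edgeR = 0.0239). The call was kept without wild-type replicate 2 and lost without any other single library (highest adjusted p = 0.0896).

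*MEX1* (AT5G17520, chromosome 5 from 5772568 to 5775417, minus strand; annotated as *RCP1*), the maltose exporter of the chloroplast envelope, was at 25.8, 23.5 and 24.6 CPM in wild type and at 27.3, 28.2 and 24.7 in nup50c. Library nup50c replicate 3 lay inside the wild-type range. The log2 fold change was 0.12, with a 95% interval of -0.10 to 0.33 (edgeR adjusted p = 0.62). The upper end of that interval is below the fitted change of each of the 6 genes that rose. The interval overlaps the 95% intervals of *BAM3* (0.20 to 0.51) and *DPE2* (0.30 to 0.63), and the difference between genes was not tested.

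*DPE2* (AT2G40840, chromosome 2 from 17044932 to 17051062, plus strand), the cytosolic transglucosidase that takes up the exported maltose, was at 123, 129.6 and 126 CPM in wild type and at 175, 159 and 189.8 in nup50c. The groups did not overlap, and the log2 change was 0.47 (SE 0.07, adjusted p by edgeR = 0.0161). The call was kept without nup50c replicate 2 or 3 and lost without any other single library (highest adjusted p = 0.104, without wild-type replicate 1).

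**Figure D1:**
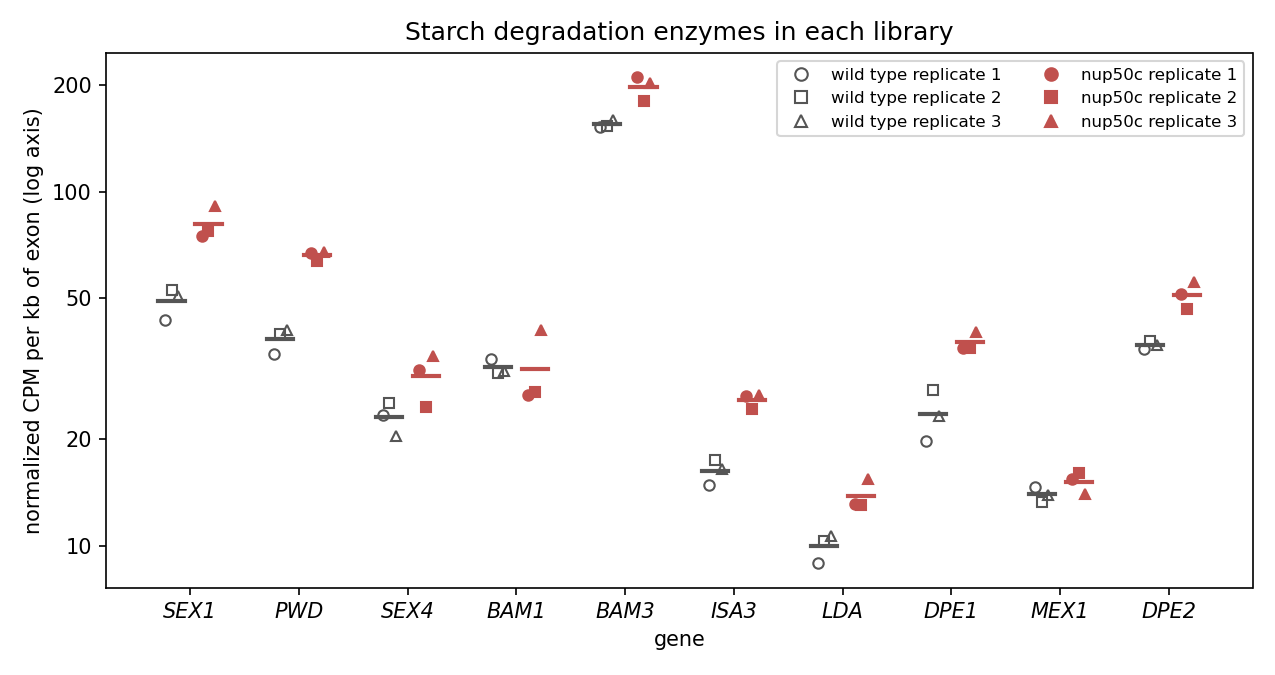
Level of each of the 10 genes in normalized CPM per kilobase of exon, on a log axis, in each wild-type library (open grey) and each nup50c library (filled red), with group means as bars. In 7 genes all nup50c points lie above all wild-type points; *SEX4*, *BAM1* and *MEX1* overlap.

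Levels per kilobase of exon allow the genes to be set beside each other. In wild type *BAM3* led at 155 CPM per kilobase, followed by *SEX1* at 49.04, *PWD* at 38.4, *DPE2* at 37.01, *BAM1* at 31.9, *DPE1* at 23.5, *SEX4* at 23.1, *ISA3* at 16.3, *MEX1* at 13.98 and *LDA* at 9.98. Between neighbours in this order the wild-type libraries overlapped for *PWD* and *DPE2* and for *DPE1* and *SEX4*, and were separate for the others. In nup50c the order from *BAM3* to *DPE2* was the same, at 198, 81.2, 66.2 and 51.2 CPM per kilobase. *PWD* and *DPE2*, which overlapped in wild type, were separate there, and *DPE1* came before *BAM1* (37.6 and 31.6), with libraries that overlapped from *DPE1* down to *ISA3* between each pair of neighbours. *MEX1* and *LDA*, separate in wild type, overlapped in nup50c.

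Summed over the 10 genes, the level was 382, 409 and 404 CPM per kilobase in wild type and 554, 509 and 589 in nup50c. Every nup50c library was above every wild-type library, by 152 on average (1.38-fold), with the smallest two-sided exact permutation p that 3 against 3 allows, 0.1. *BAM3* made up 39.9%, 37.5% and 39.5% of the sum in wild type, against 38.0%, 35.3% and 34.5% in nup50c. The deposited FPKM (fragments scaled by gene length and library size) gave sums of 353 to 379 in wild type and 482 to 541 in nup50c. Of the 10 genes, 8 had their highest CPM of all libraries in nup50c replicate 3, which stood apart on the second component. The share of all genes tested with their highest value in that library was not computed. Without that library the summed level was still higher, by 133, and *SEX1*, *PWD*, *ISA3* and *DPE2* passed the edgeR test.

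**Figure D2:**
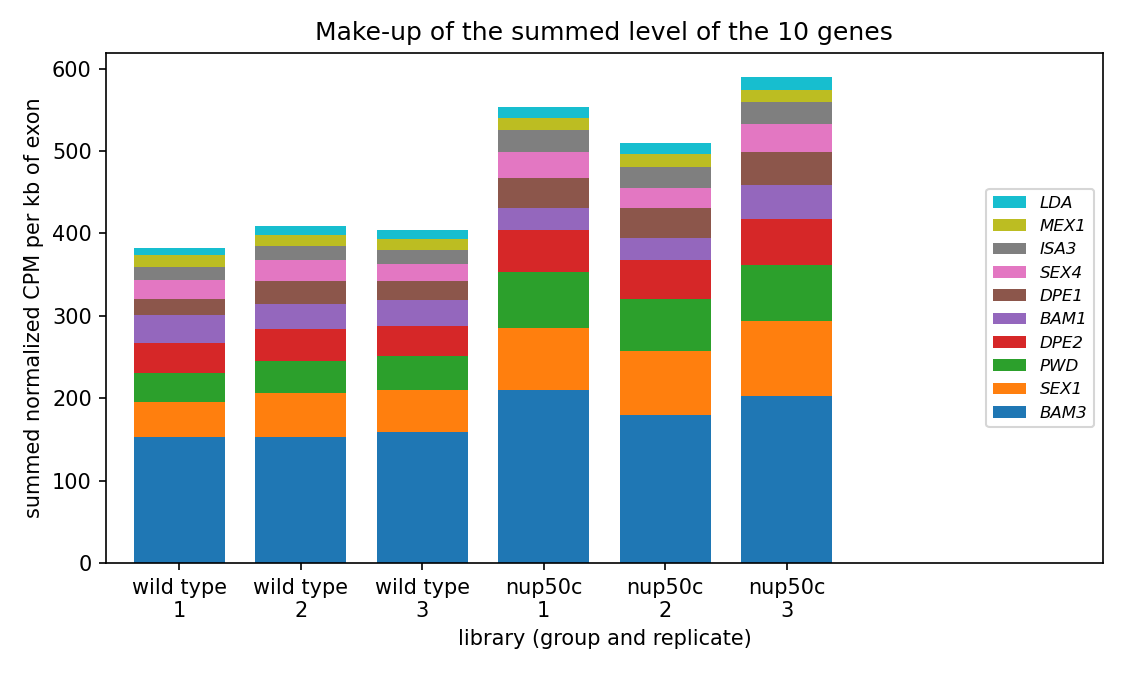
Summed level of the 10 genes in each library, in normalized CPM per kilobase of exon, with the part of each gene as a coloured segment and the axis starting at 0. The wild-type libraries reach 382 to 409 and the nup50c libraries 509 to 589; *BAM3* is the bottom and tallest segment in each.

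Within a group the genes varied together in part. Of the 45 pairs of genes, 36 had a positive Pearson r between their deviations from the group means over 6 libraries (median 0.54), a description only, since all values of a library share its scaling and nup50c replicate 3 adds to many of them. The share of positive pairs among all genes tested was not computed, so this is not shown to be particular to these genes. The pairs with a negative r were those of *MEX1* with each of the other genes (-0.92 to -0.43). In nup50c replicate 3 *MEX1* had its lowest nup50c value.

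Of the 18 other starch breakdown genes, 16 were tested, 3 were higher in nup50c and 0 lower, against 1.12% and 1.17% of all genes tested. DESeq2 called 4 higher and 0 lower, against 3.01% and 2.80% of the genes it tested. At an unadjusted edgeR p under 0.05 there were 4 higher and 1 lower of 16, where 8.66% of all genes tested were higher and 7.98% lower. Their median log2 fold change was 0.13. In 5 of the 16 every nup50c library lay above every wild-type library, as it did in 11.7% of all genes tested. *PHS2*, the cytosolic glucan phosphorylase that acts after DPE2, was at 155, 203 and 196 CPM in wild type and at 288, 291 and 343 in nup50c. This is a log2 fold change of 0.73 (SE 0.11, edgeR adjusted p = 0.0199), with no overlap between groups. *PHS1*, its plastid counterpart, rose to 269 ± 13.2 CPM in nup50c from 194 ± 19.6 in wild type, a log2 change of 0.47 (SE 0.08, adjusted p by edgeR = 0.0219). *AMY3*, the plastid alpha-amylase, rose to 172 ± 13.04 CPM from 125 ± 11.2 (both SD, n = 3), a log2 change of 0.46 (SE 0.08, adjusted p by edgeR = 0.0292). The calls were lost without nup50c replicate 1 or 2 for all 3 genes, without wild-type replicate 1 or 3 for *PHS1* and *AMY3*, and without wild-type replicate 2 for *AMY3* (highest adjusted p = 0.0686 for *PHS2*, 0.0838 for *PHS1* and 0.144 for *AMY3*).

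Among other beta-amylase genes, *BAM6* was at 4.49 ± 0.30 CPM in wild type and 7.82 ± 1.38 in nup50c and did not pass (log2 fold change 0.80, edgeR adjusted p = 0.0709). *BAM9*, a beta-amylase relative without catalytic activity, was at 118 ± 14.01 and 94.2 ± 12.9 CPM (-0.33, adjusted p = 0.205). The plastid glucose exporter *GLT1*, the other route by which products of starch breakdown leave the plastid, was at 192 ± 5.50 and 199 ± 9.57 CPM, with a 95% interval of the log2 fold change of -0.08 to 0.19 (edgeR adjusted p = 0.73).

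Genes of starch synthesis, set beside breakdown for comparison, gave 3 higher and 1 lower of 17 tested, with a median log2 fold change of 0.20. Of all genes tested, 1.12% were called higher and 1.17% lower. DESeq2 called 4 higher and 1 lower, against 3.01% and 2.80% of the genes it tested. At an unadjusted edgeR p under 0.05 there were 7 higher and 1 lower, against 8.66% and 7.98% of all genes tested. In 7 of the 17 every nup50c library lay above every wild-type library, as it did in 11.7% of all genes tested. *SS4*, the starch synthase of granule initiation, was at 74.8, 84.2 and 86.3 CPM in wild type and at 138, 135 and 147 in nup50c, without overlap (log2 change 0.78, adjusted p by edgeR = 0.00245), and the branching enzyme *SBE2.1* (0.68, 0.00914) and the phosphoglucomutase *PGM1* (0.55, 0.0077) rose as well. *GBSS1*, the granule-bound starch synthase that makes amylose, fell by 1.56 on the log2 scale (edgeR adjusted p = 0.00193). Whether breakdown and synthesis genes differ as groups was not tested.

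**Figure D3:**
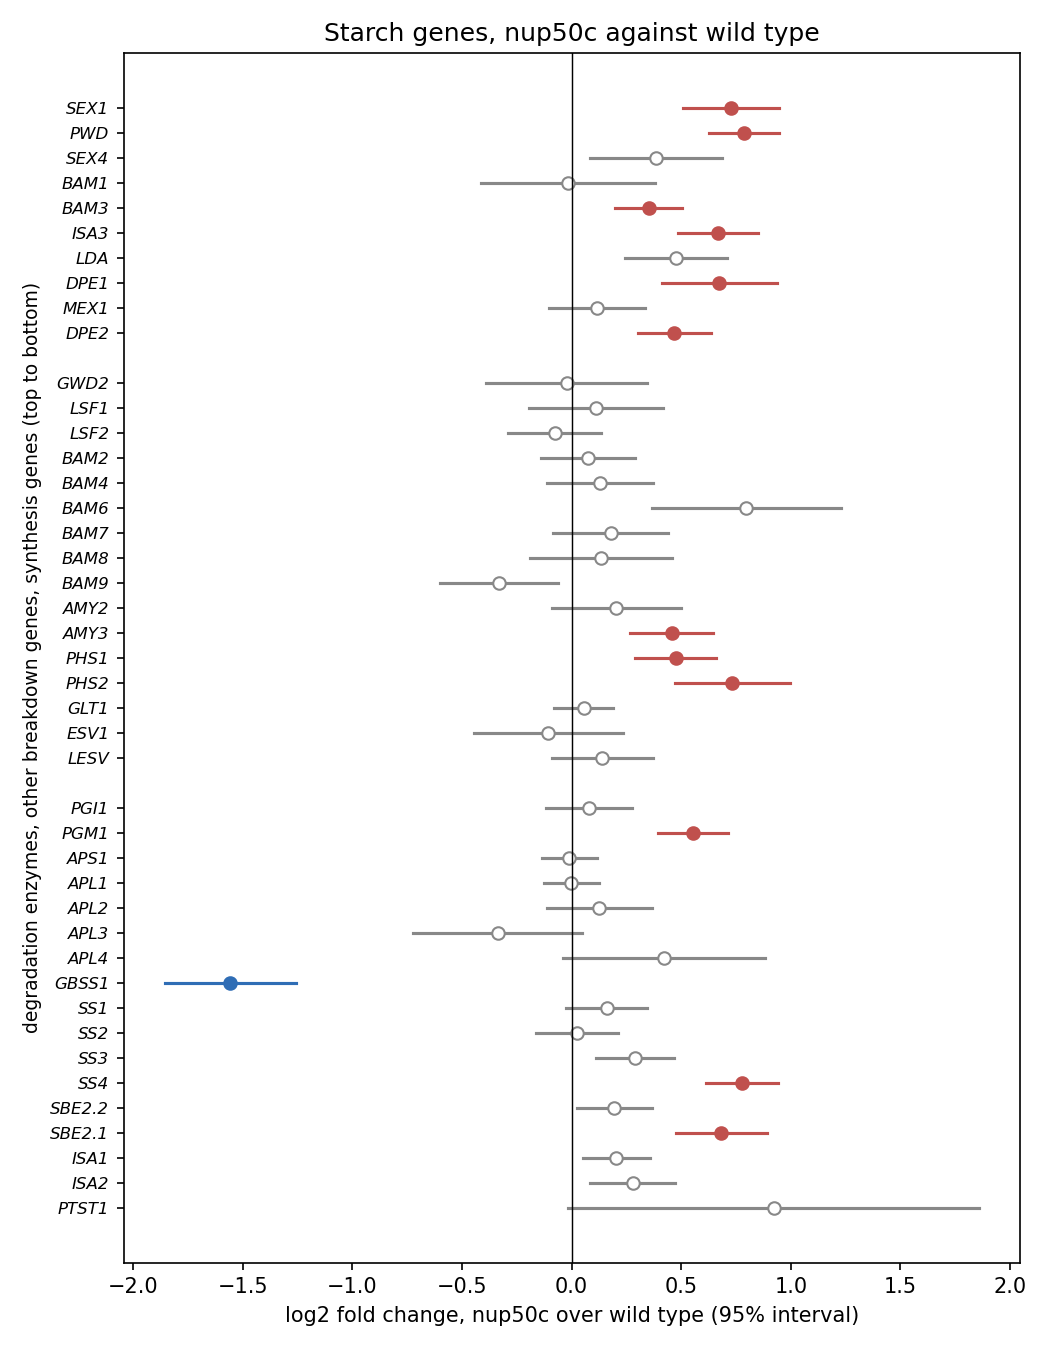
Fitted log2 fold change of nup50c over wild type with its 95% interval for the 10 starch degradation genes (top), the 16 other breakdown genes tested (middle) and the 17 synthesis genes (bottom). Filled points passed the edgeR test (red higher, blue lower); most points of the top block lie right of 0, and *GBSS1* is the single filled point to the left.

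Clock genes moved between the same libraries. *CCA1*, a MYB factor of the morning, was at 65.9 to 83.5 CPM in wild type and 23.6 to 27.1 in nup50c (log2 fold change -1.50, edgeR adjusted p = 0.000833), and its partner *LHY* fell by 1.60 (adjusted p = 0.00208). *TOC1*, an evening repressor, was at 62.6 to 80.9 CPM in wild type and 113 to 128 in nup50c (0.71, edgeR adjusted p = 0.00951), and *ELF3*, a scaffold of the evening repressor complex, was higher by 0.70 (adjusted p = 0.00299). *GI*, which also peaks in the evening, did not pass, at -0.04 on the log2 scale (adjusted p = 0.89). Of the 10 clock genes, 2 were called higher and 2 lower, against 1.12% and 1.17% of all genes tested. The time of harvest is not stated in any source at hand, so the hour of sampling and the genotype cannot be told apart for the starch genes.

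**Figure D4:**
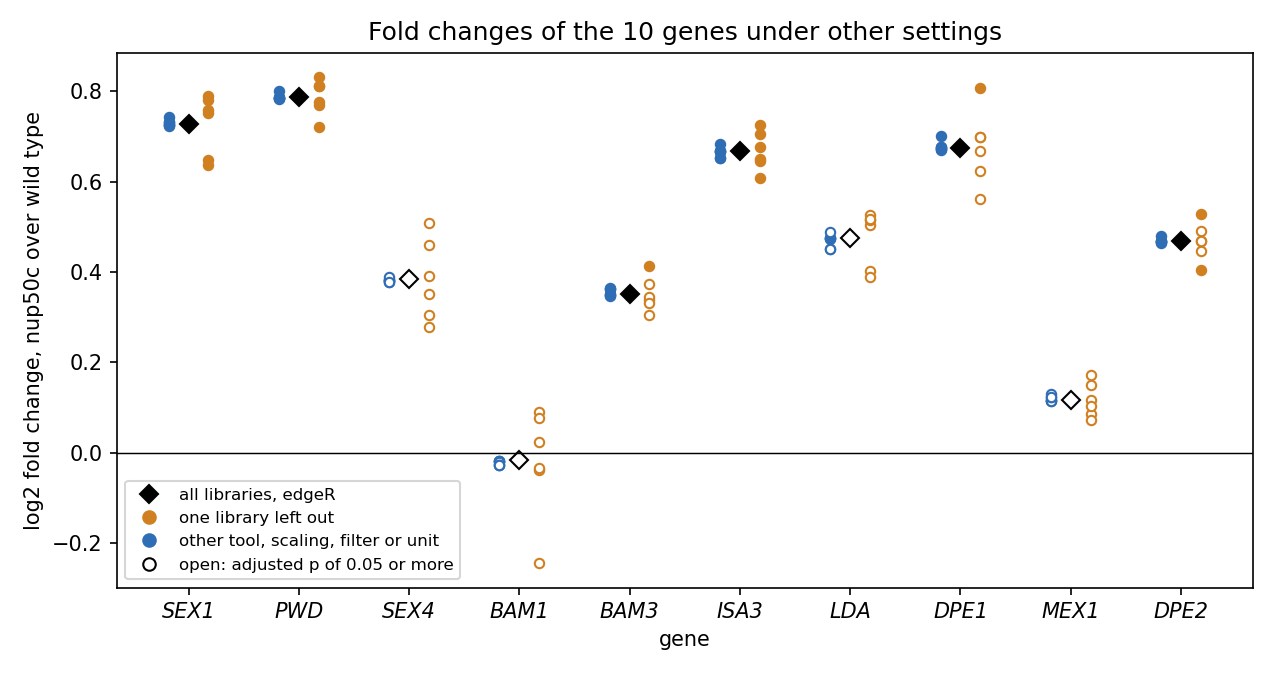
Log2 fold change of each of the 10 genes with all libraries (black diamonds), with one library left out (orange) and with another tool, scaling, filter or unit (blue); filled points have an adjusted p under 0.05, and the replicate block is not drawn. *SEX1*, *PWD* and *ISA3* stay filled in every setting drawn. *BAM3*, *DPE1* and *DPE2* are open in most settings that leave out a library, and *BAM1* lies on both sides of 0. In the replicate block *PWD* passed the edgeR test (adjusted p = 0.0414), while *SEX1* (0.0554) and *ISA3* (0.0726) did not.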

How the data were processed

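Per gene, the authors deposited counts (whole numbers, not normalized) and FPKM. HISAT2 2.0.4, HTSeq 0.6.1p1 and the build TAIR10 are listed per the submitters' processing notes. Which program made each table, its strand setting and the total behind the deposited FPKM: not given in the sources used here. Genes were matched by locus, and positions, exon lengths and upstream sequences came from the RefSeq annotation of TAIR10.1. RefSeq gives the symbol *PWD* also to AT4G24450, listed here as *GWD2*.

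The test on counts used edgeR 4.0.16 under R 4.3.3: filterByExpr with at least 10 counts, TMM scaling, the robust quasi-likelihood test without covariate, and Benjamini-Hochberg adjustment over all genes, called under 0.05. Standard errors were derived from the moderated F. The fit was tested on simulated data. Alternatives were DESeq2 1.42.0, limma 3.58.1 on log2(FPKM + 1) and log2(FPKM + 0.1), other scaling and filters, the replicate number as a block, and leaving out each library. CPM per kilobase divides normalized CPM by the exon length. No library of a group repeated another within sampling noise (mean chi-square 14.7 to 30.1 a gene). The members and lists were chosen with earlier results of these data known. Named genes are the 10 members, list genes that passed or are needed for a step, *NUP50C* and clock genes.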

Additional observations from a re-analysis of the deposited data

How the results depend on the processing

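The 6 calls among the 10 starch breakdown genes were also made with RLE scaling, without a filter and in the 3 FPKM settings, and DESeq2 and the stricter filter made them too and added *LDA*. Without a single library 3 to 5 of the 10 were called, and 0 to 3 of the other breakdown genes, while the calls of *PGM1*, *SS4*, *SBE2.1* and *GBSS1* were made each time. Over all genes, 43 to 172 were called higher and 65 to 266 lower without a single library, against 236 and 247 with all of them. DESeq2 called 662 higher and 616 lower, and the filter of at least 10 counts in all libraries 394 and 378. With the replicate number as a block, 12 genes were higher and 19 lower over all genes, with 1 of the 10 members (*PWD*), 0 of the other breakdown genes and 1 synthesis gene (*SS4*) higher. The labels state no pairing of samples by number. Deviations of same-numbered libraries correlated at -0.03, -0.12 and -0.10, and no library correlated best with its own number. With 3 libraries a group, this cannot decide if same-numbered samples were grown or prepared together. The fitted change of *BAM1* ran from -0.245 to 0.0906 without a single library and was above 0 at 0.0227 with the first wild-type library left out, 0.0906 with the first nup50c library left out and 0.0771 with the second. Among genes near no change, that of *GWD2* ran from -0.124 to 0.107 and that of *GI* from -0.143 to 0.041. The cause of these shifts was not tested. The summed level of the 10 genes stayed higher in nup50c, by 133 to 173 CPM per kilobase without a single library and by 146 in FPKM. The share of *BAM1* moved by -4.88 to -2.15 percentage points and that of *ISA3* by 2.21 to 4.05. With 3 libraries a group, exact permutation tests cannot reach 0.05.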

Other observations

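Some starch genes gave different pictures in the deposited tables. *APL4*, a large subunit of ADP-glucose pyrophosphorylase, was at 5.23 to 8.45 normalized CPM in wild type and 9.37 to 10.6 in nup50c, with nup50c above in every library, while the authors' FPKM ran from 4.29 to 4.58 in wild type but from 3.88 to 4.14 in nup50c, which was below in every library. The gene did not pass the edgeR test on the counts (adjusted p = 0.35). For *SEX4* the deposited FPKM were 24.8, 27.3 and 23.8 in wild type, against 34.9, 28.97 and 35.9 in nup50c, without overlap, whereas its normalized CPM overlapped. The flower marker *PI* had no count in any library. Its deposited FPKM was 0.338 in wild-type replicate 3, 0.402 in nup50c replicate 1 and 0 elsewhere.

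The starch breakdown genes *AMY1* and *BAM5*, an alpha-amylase and the cytosolic beta-amylase of the phloem, were not tested. *AMY1* was listed at 43 counts in wild-type replicate 1 and at 0 in the other 5 libraries, and *BAM5* at 34 counts in nup50c replicate 2 and at 0 in the other 5.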
